A study of Arabidopsis thaliana with 6 samples.

Results

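The cellulose synthase genes (CESA) and the cellulose synthase-like genes (CSL) of Arabidopsis thaliana were compared between the phod2 mutant and the wild type (WT). Members were taken by gene symbol, as CESA or CSLA to CSLG followed by a number, which gave 37 of the 32833 genes of the deposited table. These were 10 CESA, 7 CSLA, 5 CSLB, 5 CSLC, 6 CSLD, 1 CSLE and 3 CSLG genes. A further 3 loci of the family carry another style of symbol in the table (ATCSLA01, ATCSLA11 and ATCSLB06), so they fall outside the rule and are given separately. Whole seedlings aged 8 days were used, with 3 libraries of phod2 and 3 of WT, described as biological replicates. The study concerns LIP1p, which makes the lipoyl cofactor in plastids, and how plants balance phosphate. Supply of phosphate was high or low in the study as a whole, and the labels do not name it for a library. The labels also do not name the kind of lesion in phod2, the accession or the number of plants per library.

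Enzymes of this family are processive glycosyltransferases that make the backbones of wall polysaccharides. CESA proteins work at the plasma membrane in rosette-shaped complexes that spin out cellulose microfibrils, with one set of subunits in the primary wall of growing cells and another in the secondary wall of xylem and fibres. Most CSL proteins act in the Golgi, where CSLA proteins make mannans and CSLC proteins make the glucan backbone of xyloglucan. CSLD proteins serve tip growth and cell division, and the products of CSLB, CSLE and CSLG proteins in Arabidopsis are not well established.

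Libraries held 17319308 to 22417595 counts. LIP1P itself had 387, 425 and 417 counts in phod2, against 769, 558 and 773 in WT (log2 fold change -0.74 ± 0.06, SE, edgeR adjusted p = 4.7e-15). Markers of other cells of the seedling were summed as FPKM, the deposited level scaled for exon length and library size. The 3 leaf mesophyll markers lay between 14685 and 14863 FPKM in phod2 and between 14304 and 14769 FPKM in WT, with 1 of 3 lower. The 3 markers of pollen summed to at most 0.17 FPKM in any library, with the pectin methylesterase gene listed as PME5 and PPME1 at 0 throughout. The 3 endodermis markers were lower in phod2, at 19.3 to 21.1 FPKM, against 71.0 to 78.5 FPKM in WT, and all 3 passed the test. In whole seedlings, fewer cells of a type and less RNA per cell cannot be told apart. The 3 phloem markers summed to 104.5 to 110.5 FPKM in phod2 and 106.2 to 109.1 FPKM in WT, with 1 of 3 lower. The 3 stomata markers summed to 22.2 to 24.1 FPKM in phod2 and 19.6 to 21.1 FPKM in WT, with 1 of 3 higher.

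Most of the measured family was lower in phod2. Of the 37 members, 32 had enough counts to be tested, and 23 of these were lower, 4 higher and 5 did not pass an adjusted p of 0.05 (edgeR's quasi-likelihood test, Benjamini-Hochberg over all 20169 tested genes). Over all tested genes 24.6% were lower and 20.9% higher by the same rule, 45.5% in all. In the family 71.9% were lower and 12.5% higher. The median log2 fold change was -0.34 in the tested members, beside 0.01 over all tested genes. At 2-fold or more, 2 members were lower (CSLB2 and CSLB5) and 1 was higher (CSLA10), beside 5.72% lower and 1.79% higher of all tested genes. With counts scaled by library totals alone, all phod2 libraries lay below all WT libraries for 22 tested members and above them for 4. By the same scaling this held for 23.4% and 30.9% of all tested genes. Against a change of 1.5-fold in place of no change (glmTreat), 1276 of all 20169 tested genes were lower and 353 higher. In the family 3 members were then lower (CSLC4, CSLA3 and CSLB5) and 2 were higher (CSLA10 and CSLE1). Most called members therefore changed by less than could be told apart from 1.5-fold.

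**Figure D1:**
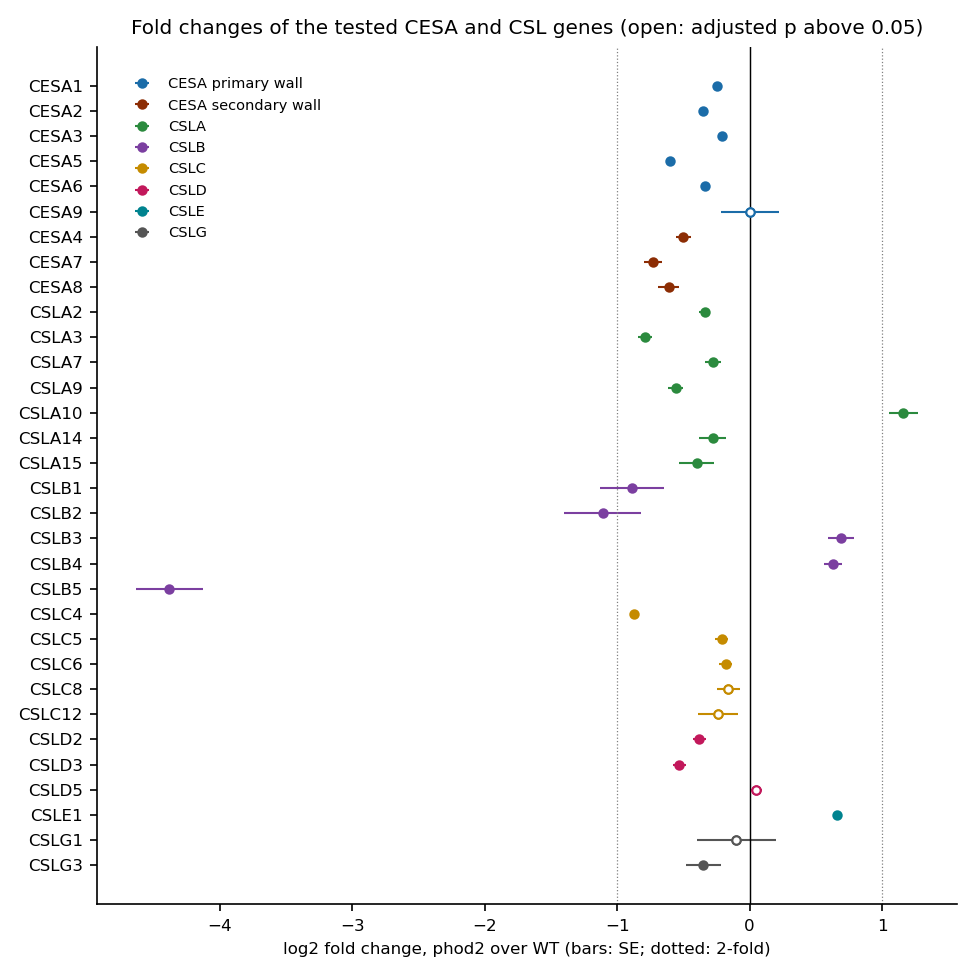
Log2 fold change (phod2 over WT, x axis) of the 32 tested members, listed by class down the page, with the SE as a bar, dotted lines at 2-fold and open points where the adjusted p was above 0.05. Most points lie between 0 and -1, CSLB5 stands at -4.38, and CSLA10, CSLB3, CSLB4 and CSLE1 lie to the right of 0.

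The 5 members that the count filter left out were CESA10, CSLD1, CSLD4, CSLD6 and CSLG2, which had 0 to 9 counts in any library. CSLD1 and CSLD4, which act in pollen tubes, had 5 to 8 and 0 counts in the phod2 libraries, against 2 to 8 and 0 to 3 in the WT libraries. CSLD6, whose role is less clear, had 0 counts in all 3 phod2 libraries, against 9, 3 and 1 counts in WT. With no count filter CSLD6 passed as lower in edgeR (adjusted p = 0.00644), as it did in DESeq2 (adjusted p = 0.0265), on 13 counts in all, 9 of them in WT replicate 1. It would then be a further member past 2-fold. CESA10, CSLD1, CSLD4 and CSLG2 did not pass in edgeR without the filter, with adjusted p between 0.273 and 0.994.

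CESA1, CESA3 and CESA6, the core subunits of the primary wall complex, were the most abundant members and were slightly lower in phod2. CESA3 (AT5G05170, chromosome 5, positions 1530132 to 1535558, minus strand, 15 exons) had 162.5, 162.0 and 157.6 FPKM in phod2, against 180.6, 181.5 and 178.8 FPKM in WT. CESA1 (AT4G32410, chromosome 4, positions 15640490 to 15646844, minus strand, 14 exons) had 152.8, 150.7 and 151.0 FPKM in phod2, against 176.7, 175.9 and 171.7 FPKM in WT. CESA6 (AT5G64740, chromosome 5, positions 25881033 to 25886728, plus strand, 13 exons) had 89.4, 87.0 and 89.3 FPKM in phod2, against 107.3, 109.7 and 109.4 FPKM in WT. In each of the 3 genes the highest phod2 library lay below the lowest WT library. CESA3 fell by 0.21 ± 0.02 on the log2 scale (adjusted p = 1.7e-11), CESA1 by 0.25 ± 0.02 (adjusted p = 2.2e-14) and CESA6 by 0.34 ± 0.02 (adjusted p = 3.5e-18). These correspond to ratios of 0.866, 0.842 and 0.791. In WT they ranked 457 (CESA3), 478 (CESA1) and 887 (CESA6) among all genes of the table by mean FPKM. They made up 83.9% to 84.3% of the summed FPKM of all 10 CESA genes in phod2 and 81.7% to 81.9% in WT.

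CESA2, CESA5 and CESA9 can take the place of CESA6 in the primary wall complex, and CESA9 is known mainly from the seed coat. CESA5 (AT5G09870) had 23.4, 22.6 and 21.7 FPKM in phod2, against 33.5, 33.3 and 32.8 FPKM in WT, and it fell by 0.60 ± 0.03 on the log2 scale (adjusted p = 1.2e-22). CESA2 (AT4G39350) had 38.2, 36.6 and 35.8 FPKM in phod2, against 45.8, 45.7 and 45.7 FPKM in WT (log2 fold change -0.35 ± 0.03, adjusted p = 2.0e-15). CESA5 thus had the largest fall among the tested primary wall genes. CESA9 was near the limit of detection, with 29 to 56 counts in phod2 and 37 to 52 in WT. Its log2 fold change was 0.00 ± 0.22 (adjusted p = 0.997). The 2 seed coat mucilage markers summed to 38.0 to 39.4 FPKM in phod2 and 45.1 to 48.3 FPKM in WT. Of the 2 markers, MUM2 passed as lower (log2 fold change -0.36 ± 0.04, adjusted p = 2.1e-12) and MUM4 did not pass (adjusted p = 0.191). Whether they mark seed coat cells in these seedlings was not tested. Within the summed FPKM of these 4 interchangeable subunits, CESA5 took 14.7% to 15.4% in phod2 and 17.4% to 17.9% in WT. The share of CESA6 was 59.0% to 60.6% in phod2, against 57.4% to 58.01% in WT, and the share of CESA2 overlapped between the groups. CESA5 and CESA6 transcripts share 84.8% identity over 78.9% of the CESA5 transcript, below the 95% at which reads would be likely to be split.

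CESA4, CESA7 and CESA8, the subunits of the secondary wall complex that is best known from xylem, were all lower in phod2. CESA4 (AT5G44030, chromosome 5, positions 17714390 to 17719723, plus strand, 12 exons) had 7.15, 7.28 and 6.80 FPKM in phod2, against 9.58, 10.3 and 9.33 FPKM in WT. CESA7 (AT5G17420, chromosome 5, positions 5736630 to 5741500, minus strand, 12 exons) had 4.41, 4.90 and 4.81 FPKM in phod2, against 7.88, 7.62 and 7.32 FPKM in WT. CESA8 (AT4G18780, chromosome 4, positions 10312624 to 10316886, minus strand, 12 exons) had 4.00, 4.63 and 4.11 FPKM in phod2, against 6.69, 6.38 and 5.83 FPKM in WT. The groups did not overlap in any of the 3 genes. CESA4 fell by 0.50 ± 0.06 on the log2 scale (adjusted p = 2.2e-10), CESA7 by 0.73 ± 0.07 (adjusted p = 3.9e-13) and CESA8 by 0.61 ± 0.08 (adjusted p = 3.1e-09). CESA7 stood at 0.617 to 0.707 of the FPKM of CESA4 in phod2 and at 0.737 to 0.823 in WT, while the ratio of CESA8 to CESA4 overlapped between the groups. CESA4 shares 17 bases with its upstream neighbour AT5G44020 on the same strand, a gene at 588.4 FPKM in phod2 and 644.2 FPKM in WT, so a few of its reads could belong to that gene.

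**Figure D2:**
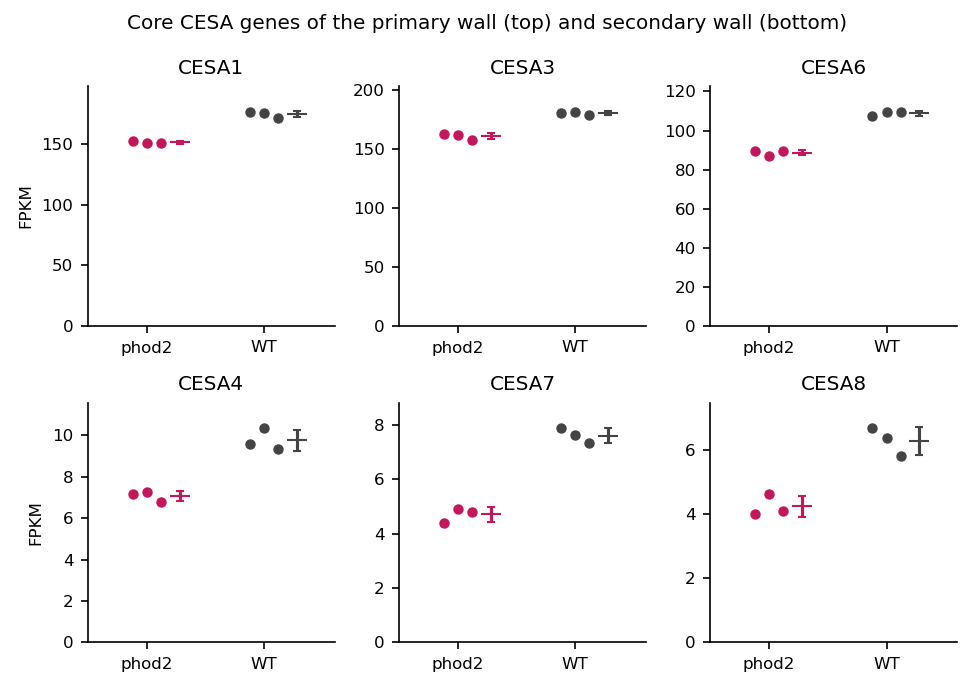
FPKM (y axis, from 0) of CESA1, CESA3 and CESA6 in the top row and of CESA4, CESA7 and CESA8 in the bottom row, for the 3 phod2 libraries on the left and the 3 WT libraries on the right of each panel, with mean and SD beside the points. The phod2 points lie below the WT points in all 6 panels, and the gap relative to the level is wider in the bottom row.

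Secondary wall CESA genes stood lower in phod2 relative to primary wall CESA genes than in WT. The summed FPKM of CESA1, CESA3 and CESA6 was 26.0, 23.8 and 25.3 times that of CESA4, CESA7 and CESA8 in the phod2 libraries, against 19.2, 19.2 and 20.5 times in the WT libraries, and the groups did not overlap. The secondary wall sum was 16.0 ± 0.680 FPKM in phod2, against 23.7 ± 1.02 FPKM in WT, and the core primary wall sum was 400.8 ± 3.47 FPKM in phod2, against 463.9 ± 3.69 FPKM in WT (SD, n = 3 each). The ratio was given no test, since sums over members served only to describe each library. An exact permutation p for a single value in 3 against 3 libraries cannot fall below 0.10. In the same libraries the 3 xylem markers (the proteases XCP1 and XCP2 and the transcription factor VND7, listed as NAC030) passed as lower, and their summed FPKM was 52.2 to 57.5 in phod2 and 88.2 to 88.6 in WT. Relative to that sum, CESA4, CESA7 and CESA8 stood at 0.271, 0.320 and 0.301 in phod2 and at 0.273, 0.275 and 0.255 in WT, which overlapped. This ratio was chosen after the values were seen.

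**Figure D3:**
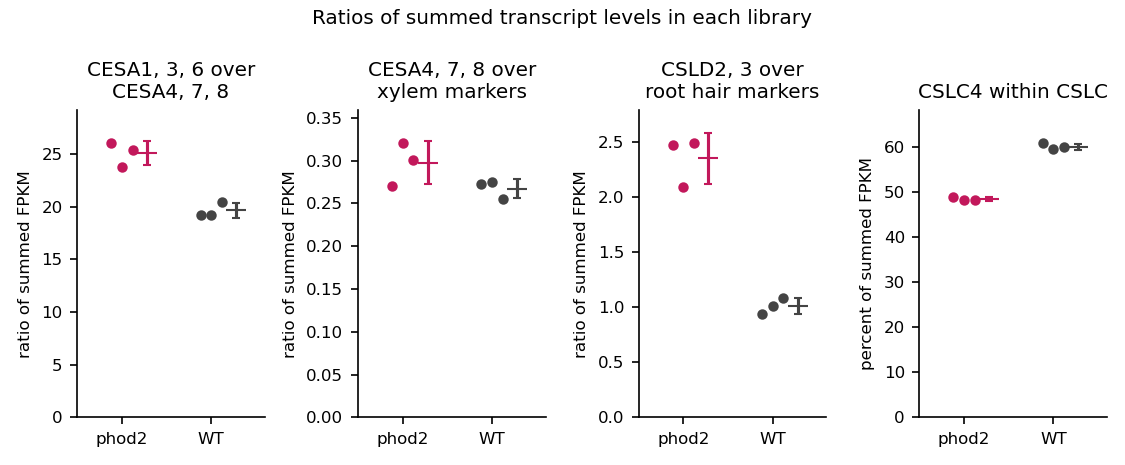
Ratios and a percent of summed FPKM (y axes, from 0) in each phod2 library (left) and WT library (right), with mean and SD. The ratio of primary to secondary wall CESA is higher in phod2 (23.8 to 26.0) than in WT (19.2 to 20.5), the ratio of secondary wall CESA to xylem markers overlaps, the ratio of CSLD2 and CSLD3 to root hair markers is higher in phod2, and CSLC4 holds a smaller percent of CSLC in phod2.

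Among the CSLD genes, the 2 tested genes of tip growth were lower and the gene of cell division did not pass the test. CSLD3 (AT3G03050, chromosome 3, positions 686981 to 691911, plus strand), which root hairs need to grow, had 9.88, 9.22 and 10.01 FPKM in phod2, against 13.9, 13.0 and 13.9 FPKM in WT. CSLD2 (AT5G16910, chromosome 5, positions 5560607 to 5565660, plus strand), which acts beside it, had 10.3, 10 and 10.4 FPKM in phod2, against 13.0, 13.1 and 12.8 FPKM in WT. Both were lower without overlap of the groups, by -0.53 ± 0.05 (adjusted p = 4.0e-14) for CSLD3 and -0.38 ± 0.05 (adjusted p = 4.2e-10) for CSLD2 on the log2 scale. CSLD5 (AT1G02730), which serves the cell plate of dividing cells and was the most abundant CSLD gene, had 21.6, 20.3 and 21.1 FPKM in phod2, against 20.3, 18.5 and 20.3 FPKM in WT. Its log2 fold change was 0.05 ± 0.04 (adjusted p = 0.348), and the groups overlapped.

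CSLD2 and CSLD3 fell by less on the log2 scale than the markers of root hairs. Summed over EXPA7, COBL9 and PRP3, wall protein genes of root hairs, the level was 8.14, 9.20 and 8.20 FPKM in phod2, against 28.5, 25.8 and 24.5 FPKM in WT, and all 3 passed as lower. CSLD2 and CSLD3 together had 2.48, 2.09 and 2.49 times that sum in phod2, against 0.941, 1.01 and 1.09 times in WT, without overlap. This ratio was chosen after the values were seen. The part of root hair cell number in the fall of CSLD2 and CSLD3 was not tested.

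CSLA genes, which encode glucomannan synthases, were lower with the exception of CSLA10. CSLA2 (AT5G22740), the most abundant of them, had 21.94, 21.99 and 22.16 FPKM in phod2, against 26.5, 28.4 and 26.4 FPKM in WT (log2 fold change -0.34 ± 0.04, adjusted p = 1.4e-09). CSLA3 (AT1G23480) had 14.2, 13.6 and 13.5 FPKM in phod2, against 22.4, 24.4 and 22.7 FPKM in WT, and fell by 0.79 ± 0.05 (adjusted p = 2.8e-21). CSLA9, the main glucomannan synthase of stems, fell by 0.56 ± 0.06 (adjusted p = 5.2e-11), and CSLA7, known from embryo growth, by 0.28 ± 0.06 (adjusted p = 9.3e-05). The groups did not overlap in these 4 genes, with the smallest distance in CSLA7, where the highest phod2 library had 14.09 FPKM and the lowest WT library 14.64 FPKM. CSLA14 (-0.28 ± 0.10, adjusted p = 0.0192) and CSLA15 (-0.40 ± 0.13, adjusted p = 0.0122) passed near the threshold. CSLA14 missed it without phod2 replicate 3 or WT replicate 3 (adjusted p = 0.107 and 0.132) and in DESeq2 (0.102), and CSLA15 without WT replicate 1 (0.0632) and in DESeq2 (0.0756).

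CSLA10 (AT1G24070, chromosome 1, positions 8516166 to 8519984, minus strand, 9 exons) moved the other way and was the one member at least 2-fold higher in phod2. It had 5.20, 5.27 and 4.87 FPKM in phod2, against 2.33, 2.24 and 2.09 FPKM in WT. The log2 fold change was 1.16 ± 0.11 (adjusted p = 4.2e-14), and it was 0.92 by limma on log2(FPKM + 1), under 2-fold, since the pseudocount shrinks folds of low genes. The class as a whole held 70.9 ± 0.886 FPKM in phod2, against 90.4 ± 0.846 FPKM in WT (SD, n = 3 each). Of the loci outside the rule, ATCSLA11 did not pass (-0.21 ± 0.13, adjusted p = 0.183), and ATCSLA01 had 0 to 1 counts in phod2 and 0 to 4 in WT.

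CSLC4 was the CSLC gene with the largest fall. CSLC4 (AT3G28180, chromosome 3, positions 10505711 to 10509265, plus strand, 4 exons), which makes the glucan backbone of xyloglucan, had 34.7, 34.7 and 34.4 FPKM in phod2, against 64.0, 60.3 and 60.3 FPKM in WT. It fell by 0.87 ± 0.03 on the log2 scale (adjusted p = 6.3e-31), a ratio of 0.546. CSLC5 (-0.21 ± 0.05, adjusted p = 7.5e-04) and CSLC6 (-0.18 ± 0.05, adjusted p = 0.001) were lower by less. CSLC8 (-0.16 ± 0.09, adjusted p = 0.139) and CSLC12 (-0.24 ± 0.15, adjusted p = 0.208) did not pass, and CSLC8 passed without WT replicate 3 (adjusted p = 0.036). CSLC4 held 48.3% to 49.0% of the summed FPKM of the 5 CSLC genes in phod2, against 59.6% to 60.9% in WT. The class sum was 71.3 ± 0.501 FPKM in phod2 and 102.2 ± 2.43 FPKM in WT (SD, n = 3 each).

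The CSLB genes moved in both directions. CSLB3 and CSLB4 lie next to each other on chromosome 2, 970 bases apart, and CSLB1 and CSLB2 form another neighbouring set there, 1046 bases apart, with 5 genes of the table between the sets. CSLB4 (AT2G32540, positions 13814543 to 13818410) had 11.15, 10.86 and 11.03 FPKM in phod2, against 6.64, 7.39 and 6.77 FPKM in WT. CSLB3 (AT2G32530, positions 13809019 to 13813572) had 5.22, 4.79 and 5.38 FPKM in phod2, against 2.88, 3.51 and 2.95 FPKM in WT. Both were higher in every phod2 library, by 0.63 ± 0.07 (adjusted p = 1.3e-11) for CSLB4 and 0.69 ± 0.10 (adjusted p = 6.5e-08) for CSLB3 on the log2 scale. The ratio of CSLB4 to CSLB3 was 2.05 to 2.27 in phod2 and 2.11 to 2.31 in WT, which overlapped.

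CSLB1 and CSLB2 were lower in phod2 and had few counts. CSLB1 (AT2G32610) had 24, 22 and 29 counts in phod2, against 44, 38 and 60 in WT, and fell by 0.89 ± 0.24 (adjusted p = 0.00181). CSLB2 (AT2G32620) had 16, 16 and 13 counts in phod2, against 35, 27 and 38 in WT, and fell by 1.11 ± 0.29 (adjusted p = 0.00136). Without phod2 replicate 3 the fold change of CSLB2 was -0.96, under 2-fold. Transcripts of CSLB1 and CSLB2 are 85.4% identical and those of CSLB3 and CSLB4 88.9%.

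CSLB5 had the largest change of the family. CSLB5 (AT4G15290, chromosome 4, positions 8721482 to 8726733, minus strand, 9 exons) had 1, 8 and 13 counts in phod2, against 170, 109 and 200 in WT. In FPKM these were 0.02, 0.16 and 0.24 in phod2, against 2.90, 2.40 and 3.53 in WT. The log2 fold change was -4.38 ± 0.25 (adjusted p = 1.7e-22), and it was -5.01 without phod2 replicate 3 and -3.92 without phod2 replicate 1. Its closest transcript is that of ATCSLB06, with 91.7% identity over 87.6% of CSLB5, so some reads could fit both. ATCSLB06 had 27, 28 and 36 counts in phod2, against 22, 18 and 15 in WT (log2 fold change 0.75 ± 0.29, adjusted p = 0.0279, and adjusted p = 0.122 in DESeq2). It missed the threshold without phod2 replicate 3 (adjusted p = 0.105) and without WT replicate 3 (adjusted p = 0.135). ATCSLB06 averaged 0.54 FPKM in phod2 and 0.313 FPKM in WT. The summed level of the 5 CSLB genes was higher, at 17.1 ± 0.450 FPKM in phod2, against 14.6 ± 0.648 FPKM in WT (SD, n = 3 each).

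The 300 bases upstream of the annotated starts of the 5 CSLB genes are shown, since the CSLB3 and CSLB4 neighbours rose while CSLB1, CSLB2 and CSLB5 fell (RefSeq, TAIR10.1, 5′ to 3′, capitals mark matches to the root hair element core described below).
CSLB3 (chr2:13808719-13809018, plus strand): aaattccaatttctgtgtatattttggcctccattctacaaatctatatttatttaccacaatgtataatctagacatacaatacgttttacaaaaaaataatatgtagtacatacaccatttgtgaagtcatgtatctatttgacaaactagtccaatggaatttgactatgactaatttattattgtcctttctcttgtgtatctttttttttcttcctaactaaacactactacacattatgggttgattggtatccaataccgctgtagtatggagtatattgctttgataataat
CSLB4 (chr2:13814243-13814542, plus strand): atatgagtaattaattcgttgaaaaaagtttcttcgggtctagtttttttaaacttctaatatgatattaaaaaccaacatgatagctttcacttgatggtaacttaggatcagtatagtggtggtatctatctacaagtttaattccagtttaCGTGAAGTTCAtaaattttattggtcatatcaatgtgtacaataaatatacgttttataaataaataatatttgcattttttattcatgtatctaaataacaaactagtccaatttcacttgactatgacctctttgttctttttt
CSLB1 (chr2:13835817-13836116, plus strand): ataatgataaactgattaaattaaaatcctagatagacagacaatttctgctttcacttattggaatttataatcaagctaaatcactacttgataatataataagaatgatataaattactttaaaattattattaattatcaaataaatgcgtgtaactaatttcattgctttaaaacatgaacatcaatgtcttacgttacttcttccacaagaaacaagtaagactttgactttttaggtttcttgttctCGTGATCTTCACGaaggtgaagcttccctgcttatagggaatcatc
CSLB2 (chr2:13840387-13840686, plus strand): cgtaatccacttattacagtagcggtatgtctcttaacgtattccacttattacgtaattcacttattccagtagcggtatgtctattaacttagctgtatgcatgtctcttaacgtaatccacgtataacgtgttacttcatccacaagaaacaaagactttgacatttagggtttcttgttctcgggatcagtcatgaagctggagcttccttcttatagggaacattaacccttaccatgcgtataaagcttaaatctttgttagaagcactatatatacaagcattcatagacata
CSLB5 (chr4:8726734-8727033, minus strand): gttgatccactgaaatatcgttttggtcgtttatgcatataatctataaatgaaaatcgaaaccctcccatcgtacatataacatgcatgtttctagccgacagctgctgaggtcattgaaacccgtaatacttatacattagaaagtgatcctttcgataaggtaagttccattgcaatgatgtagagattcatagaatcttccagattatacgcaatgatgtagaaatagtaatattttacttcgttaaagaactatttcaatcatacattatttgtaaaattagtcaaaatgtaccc

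In global alignments the upstream windows of the CSLB genes, ATCSLB06 included, shared 50.0% to 56.7% of their bases, with 55.0% for CSLB3 and CSLB4, which rose together, and 55.7% for CSLB1 and CSLB2, which fell together. These values lie inside the range of the other combinations. No unrelated windows were aligned for comparison, and shorter shared stretches, which a value over the whole window can miss, were not searched. The values therefore cannot show whether windows of genes that moved together are more alike. The core of the root hair element RHE was searched on both strands in 4 forms, which can overlap each other, as they do in CSLB1. It was found upstream of CSLB1, CSLB4 and CSLC5, 3 of 37 members, and in 4.7% of the 32530 windows of all genes. Neither CSLD2 nor CSLD3 has these letters in its window. CSLB4 rose while CSLB1 and CSLC5 fell, so members with a match moved in both directions.

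**Figure D4:**
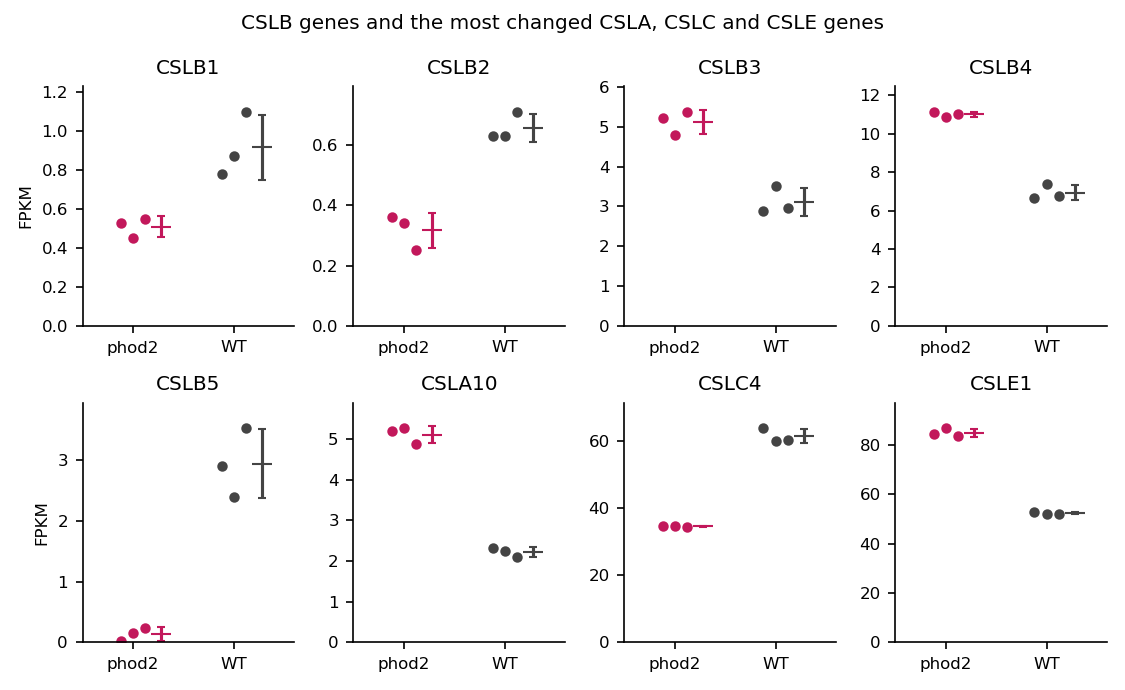
FPKM (y axes, from 0, each on its own scale) of CSLB1 to CSLB5, CSLA10, CSLC4 and CSLE1 in the 3 phod2 libraries (left in each panel) and the 3 WT libraries (right), with mean and SD. CSLB3, CSLB4, CSLA10 and CSLE1 are higher in phod2, the other 4 genes are lower, and the groups do not overlap in any panel.

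CSLE1 was the abundant member that rose. CSLE1 (AT1G55850, chromosome 1, positions 20876440 to 20879482, plus strand, 6 exons) had 84.3, 86.7 and 83.7 FPKM in phod2, against 52.6, 52.1 and 51.8 FPKM in WT. The groups lay far apart, with a log2 difference of 0.66 ± 0.03 (adjusted p = 1.4e-27). In phod2 its level was 2.43 to 2.50 times that of CSLC4, against 0.823 to 0.865 times in WT, so CSLE1 was the higher of the 2 genes in phod2 and CSLC4 in WT. CSLG3 (AT4G23990), the most abundant of the CSLG cluster on chromosome 4, had 1.82, 2.00 and 1.97 FPKM in phod2, against 2.49, 2.20 and 2.46 FPKM in WT (log2 fold change -0.35 ± 0.13, adjusted p = 0.0223). That call was lost without phod2 replicate 1, WT replicate 1 or WT replicate 3 (adjusted p = 0.0766, 0.0781 and 0.0679) and in DESeq2 (0.11). CSLG1 had 19, 21 and 27 counts in phod2, against 27, 11 and 36 in WT, and did not pass (adjusted p = 0.809).

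Upstream windows of the members were also searched for elements of phosphate starvation and of secondary walls. The PHR1 binding site P1BS (GNATATNC, both strands) was found for CESA3 and CSLC12, 2 of 37 members, and in 6.4% of all windows. The tracheary element TERE, whose match is in the capitals of CESA4, was searched on both strands. It was found for CESA4, 1 of 37 members, and in 0.4% of all windows. The match of CESA4 lies within its upstream neighbour AT5G44020, which shares 17 bases with CESA4 on the same strand. The MYB46 element SMRE (ACCAAAC or ACCAAAT or ACCAACC or ACCAACT or ACCTAAC or ACCTAAT or ACCTACC or ACCTACT, both strands) was found for 10 of 37 members and in 33.6% of all windows. CESA4 and CESA8 were among those 10 and CESA7 was not. The primary wall genes CESA1, CESA5 and CESA9 were also among them, as were CSLA2, CSLA9, CSLC5, CSLD3 and CSLG3. The windows of CESA4 and CESA8 overlap another gene. The CESA3 window is shown with its P1BS match in capitals. For CESA4 the 30 bases before the start are shown, with the TERE match in capitals. They hold the P1BS and TERE matches of the core CESA genes, and these elements are in 6.4% and 0.4% of all windows.
CESA3 (chr5:1535559-1535858, minus strand): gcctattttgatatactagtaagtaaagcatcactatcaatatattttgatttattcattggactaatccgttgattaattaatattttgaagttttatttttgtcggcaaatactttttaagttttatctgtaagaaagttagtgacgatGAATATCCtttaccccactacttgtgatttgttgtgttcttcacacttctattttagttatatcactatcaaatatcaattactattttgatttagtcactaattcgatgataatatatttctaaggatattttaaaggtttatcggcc
CESA4 (chr5:17714360-17714389, plus strand): tacataataaCTTGAAAGCTActctaagtt

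Genes that work with the CESA complex were mostly lower as well. In a list of partners of the complex, 16 of 17 genes were tested, with a median log2 fold change of -0.32. Of these 14 were lower, 1 was higher (CSI3) and 1 did not pass. KOB1 was among the 14 at adjusted p = 0.0494, with groups that overlapped, and it lost its call in 12 of 17 alternatives. THE1, a receptor-like kinase known to respond to loss of cellulose, averaged 37.1 FPKM in phod2 and 65.3 FPKM in WT (log2 fold change -0.85 ± 0.03, adjusted p = 1.1e-32). CSI1, which ties the complex to microtubules, fell by 0.41 ± 0.03 (adjusted p = 2.5e-20) and COB, a membrane-anchored protein of oriented growth, by 0.37 ± 0.03 (adjusted p = 9.3e-19). The share of the list that was lower, 87.5%, stands beside the 24.6% over all tested genes.

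Secondary wall and xylem genes were lower in nearly every case that was tested. Of 24 genes 22 were tested, 20 were lower and none was higher, beside 24.6% lower and 20.9% higher of all tested genes. The median log2 fold change of the list was -0.79. Under the alternatives other than glmTreat, 14 (DESeq2) to 20 genes of the list were lower. IRX14 and MYB46 lost their call in 13 and 11 of 17 alternatives. The 5 genes past 2-fold, beside 5.72% of all tested genes, were XCP1 (-1.14 ± 0.06, adjusted p = 2.5e-24), the lignin laccase genes LAC4 (-1.02 ± 0.07, adjusted p = 5.8e-19, listed as IRX12) and LAC17 (-1.0 ± 0.08, adjusted p = 1.4e-17), the xylan gene FRA8 (-1.18 ± 0.09, adjusted p = 7.0e-17, listed as IRX7) and the homeobox gene KNAT7 (-1.04 ± 0.11, adjusted p = 3.3e-12). CESA4, CESA7 and CESA8, at -0.50 to -0.73, lay within the range of this list, -1.18 to -0.14. The list includes the xylem markers XCP1, XCP2 and VND7, so it is not separate from the comparison with those markers.

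All 12 root hair genes of the list were lower, 11 of them at least 2-fold, with a median log2 fold change of -1.59. Of all tested genes 24.6% were lower and 5.72% lower by at least 2-fold. Examples by the lowest adjusted p were the NADPH oxidase gene RBOHC (-1.65 ± 0.11, adjusted p = 1.2e-20), PRP3 (-1.53 ± 0.10, adjusted p = 5.7e-20), LRX1 (-1.96 ± 0.14, adjusted p = 4.5e-19) and COBL9 (-2.01 ± 0.17, adjusted p = 6.5e-16). CSLD3 at -0.53 and CSLD2 at -0.38 lay outside the range of that list, -3.02 to -0.93. The list includes the root hair markers EXPA7, COBL9 and PRP3, so it is not separate from the comparison with those markers. Of 11 genes that act with CSLC or CSLA proteins, 7 were lower (63.6%, beside 24.6% of all tested genes) and 4 did not pass, with a median of -0.19. The xylosyltransferase genes XXT1 (-0.99 ± 0.06, adjusted p = 1.3e-22) and XXT5 (-0.65 ± 0.05, adjusted p = 2.4e-18), the galactosyltransferase gene XLT2 (-0.73 ± 0.08, adjusted p = 2.0e-12) and MSR1, a gene of mannan synthesis (-0.48 ± 0.06, adjusted p = 5.9e-09), had the lowest adjusted p.

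**Figure D5:**
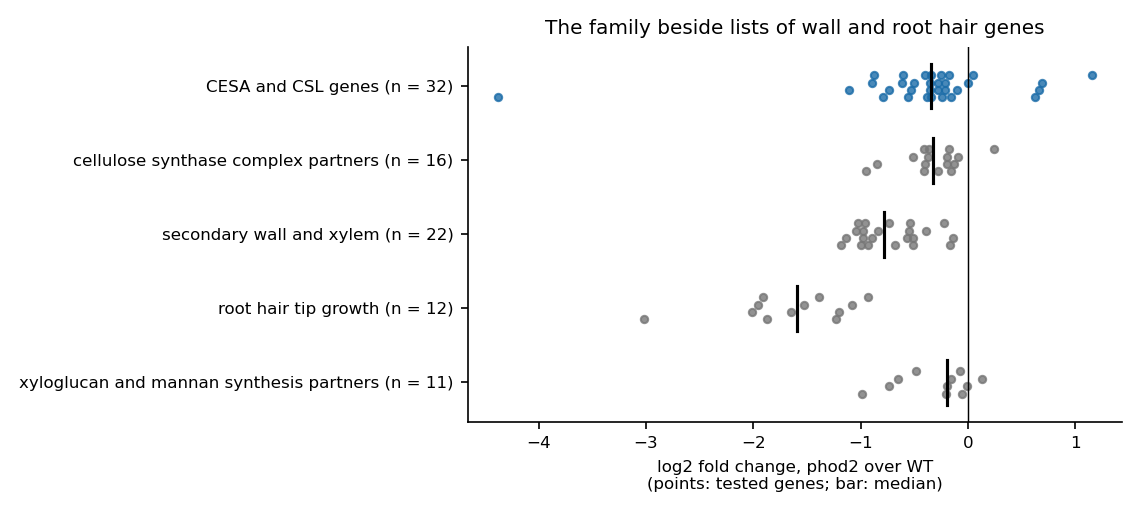
Log2 fold change (phod2 over WT, x axis) of each tested gene in the CESA and CSL family and in 4 lists of related genes, with the median as a bar. The family median is -0.34, near that of the CESA partners at -0.32, and the root hair list lies furthest to the left at -1.59.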

How the data were processed

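Total RNA of 3 phod2 and 3 WT libraries was sequenced by the authors. The deposited table holds raw counts per gene and FPKM, per the file headers. FPKM, recomputed from counts, library totals and exonic length, matched the deposited FPKM within 0.005. The aligner, the counter and any use of strand were not given in the sources used here. Per the submitters' processing notes the build was mm10, a mouse genome, which does not match the Arabidopsis gene IDs. Of 32833 IDs, 32548 were found in TAIR10.1, and 32532 had the same start and end, so sequences and coordinates are from TAIR10.1 (RefSeq).

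Counts were tested with edgeR 4.0.16 (filterByExpr, TMM factors, quasi-likelihood test, genotype only, 2-sided) in R 4.3.3, which left 20169 genes, with p-values adjusted over all of them. An SE is the log2 fold change over the square root of F. DESeq2 1.42.0 and limma 3.58.1, on log2(FPKM + 1) or log2(FPKM + 0.1), served as alternatives, as did other scalings, filters, glmTreat and leaving out each library. Transcripts were compared with BLAST 2.17.0. P-values measure only the spread between these libraries, which the labels do not tie to separate plants. Members, lists and markers were chosen with earlier results of these data known. Values per library are given for core CESA genes, CSLD2, CSLD3, members past 2-fold and the most abundant member of each class, and further members were added after their values were seen. List genes named are those with the lowest adjusted p or past 2-fold.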

Additional observations from a re-analysis of the deposited data

How the results depend on the processing

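For 96 single genes, 1624 fold changes were computed under the alternatives: 1489 kept their direction and side of the threshold, 131 lost a call, 4 gained one and 0 reversed. Of 544 counts of called genes, 511 were within 1.5 times the reported count and 33 were below that. Of 201 class ratios, 7 moved by more than the spread between libraries. Against a 1.5-fold change (glmTreat), 1276 genes were lower and 353 higher. In the family 3 were then lower and 2 higher, with 1 lower at 2-fold. Of the CESA partners 2 were lower and 0 higher, and 9 secondary wall genes and 1 gene of xyloglucan and mannan synthesis were lower. With limma on log2(FPKM + 1), 488 genes were lower and 131 higher at 2-fold, and in the family 1 was lower and 0 higher. With either pseudocount, 0 CESA partners were higher. A filter of 1 FPKM in 3 libraries and log2(FPKM + 0.1) each left 1 member lower at 2-fold, and leaving out a library gave 1 to 2. DESeq2 and edgeR without a count filter gave 3, with CSLD6 added. Scaled by TMM factors, the ratio of phod2 to WT was 0.825 for the primary wall CESA sum, 0.763 for CSLA, 0.679 for CSLC and 1.58 for CSLE, against 0.848, 0.784, 0.698 and 1.63 from deposited FPKM. With library totals only, 4320 genes were lower and 5476 higher, against 4958 and 4214, and in the family 23 and 4. For the class ratios scaled by TMM factors, FPKM was divided by factors of 1.01 to 1.02 in phod2 and 0.985 to 0.987 in WT. Causes of the other differences were not tested.

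With a replicate block, 23 members were lower and 4 higher, and 4869 genes lower and 4095 higher. Libraries with the same number did not deviate together (correlations -0.0178, 0.012 and -0.00512), so the numbers were not taken to pair libraries. Genes with few counts, such as CSLB1, CSLB2 and CSLB5, have folds that depth limits.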
